A study of Mus musculus with 10 samples.

Results

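A set of 7 S100 genes (the members) was followed across 10 RNA-seq libraries of male mouse embryonic stem cells (mESCs): S100a1, S100a13, S100a16, S100a4, S100a6, S100a11 and S100a10, out of 25965 features in the deposited table. The set was picked by name. S100a1 and S100a13 were chosen because they were lower than at p0 under both culture methods, so their difference from p0 is given as a description without a test, and the question was whether the other members follow them. Both mESC lines were labelled C57/Bl6, were derived under Keniry2022 conditions and were grown in 2i medium, a serum-free medium with inhibitors of MEK and GSK3 that holds mESCs in the naive state. At passage 0 (p0) each line was split and kept for 10 or 20 passages (p10, p20) under Keniry2022 conditions, in suspension with daily passaging, or under Mulas2019 conditions, attached to gelatin with a passage every 48 h. The labels name the methods New or Off and Old or On, and p20 Keniry2022 is matched in days of culture to p10 Mulas2019. Each of the 5 groups held 2 libraries, 1 per line, so the 4 libraries of a method are 2 lines sampled at 2 passages and not 4 derivations.

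S100 proteins are small cytosolic proteins with a pair of EF-hand loops, the helix-loop-helix motif that binds calcium. Most form dimers, and on binding calcium they expose a surface that docks onto a partner, such as an annexin, a myosin heavy chain or a ubiquitin ligase adaptor. Most mammalian S100 genes sit together in a cluster, which in the mouse is on chromosome 3, next to genes of the epidermal differentiation complex. Several are known as markers of differentiated cells, such as S100a4 in fibroblasts and the S100a8 and S100a9 pair in neutrophils.

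Libraries held 24053996 to 30236823 reads, of which 86.1% to 88.9% lay in features. All 6 mESC markers (Pou5f1, Nanog, Sox2, Zfp42, Esrrb and Klf4) passed the filter in the libraries, with a summed level of 1134 to 1573 RPKM (reads per kilobase of exon, scaled to the size of the library). None of 8 fibroblast or feeder markers passed it, and Postn and Dcn were at 0 reads in all 10 libraries. Summed reads of Y-linked genes were 13 to 132 in replicate 1 and 4578 to 8140 in replicate 2 of every group but p20 Keniry2022, where replicate 1 had 6659 and replicate 2 had 48, although all are labelled male, so the replicate numbers of that group went against those of the other groups. Group means do not use the numbers.

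The 7 members fell into 2 stretches of chromosome 3 (mm10). S100a1 (chr3:90511034-90514392, minus strand) and S100a13 (chr3:90514435-90524581, plus strand) lay head to head, with 42 bases between them in the deposited coordinates. S100a16 (chr3:90537254-90543151), S100a4 (chr3:90603770-90606045) and S100a6 (chr3:90612894-90614414) followed on the plus strand. S100a11 (chr3:93520488-93526287) and S100a10 (chr3:93555080-93564643) lay 2.91 Mb beyond S100a6, with 68 features of the table in between, of which 2 passed the filter. S100a11 has a pseudogene, S100a11-ps, so that some of its reads could belong to another feature.

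The start regions are shown for S100a1 and S100a13, which share a region, and for S100a6 and S100a11, which have regions of their own. Any part of these regions in the levels was not tested. Sequences are from RefSeq (GRCm38.p6), where 6 of the 7 members had an entry and S100a10 had none. In the region of S100a1 and S100a13 (chr3:90514305-90514460, plus strand) the capitals mark the 106 bases from the RefSeq start of S100a1, which is read to the left, to that of S100a13, which is read to the right.
S100a1 and S100a13: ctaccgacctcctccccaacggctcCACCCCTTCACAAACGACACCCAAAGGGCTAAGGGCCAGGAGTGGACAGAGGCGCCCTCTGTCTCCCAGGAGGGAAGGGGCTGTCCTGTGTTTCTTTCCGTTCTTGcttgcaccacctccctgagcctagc
In the regions of S100a6 (chr3:90612644-90612918) and S100a11 (chr3:93520246-93520520), both on the plus strand and running from 250 bases before the start to 25 bases past it, the capitals mark matches to the motifs searched.
S100a6: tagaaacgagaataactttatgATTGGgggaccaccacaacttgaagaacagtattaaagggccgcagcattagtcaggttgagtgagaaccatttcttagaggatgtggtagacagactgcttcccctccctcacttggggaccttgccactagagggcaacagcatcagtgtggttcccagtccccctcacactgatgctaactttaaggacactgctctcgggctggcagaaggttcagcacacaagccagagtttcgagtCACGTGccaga
S100a11: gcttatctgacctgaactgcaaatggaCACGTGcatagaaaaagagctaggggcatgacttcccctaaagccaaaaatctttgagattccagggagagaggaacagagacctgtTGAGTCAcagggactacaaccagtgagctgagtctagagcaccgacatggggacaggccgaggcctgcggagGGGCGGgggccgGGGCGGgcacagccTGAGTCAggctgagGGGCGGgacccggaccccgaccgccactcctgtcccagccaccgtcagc
The 5 motifs searched on both strands of the full 300-base entries, from 250 bases before the start to 50 past it, were TATAAA (the TATA box, in 13.6% of all 32851 mouse entries), CCAAT (37.4%), GGGCGG (bound by SP factors, 35.7%), TGANTCA (bound by AP-1, 7.81%) and CACGTG (the E-box of MYC and related factors, 7.15%). The entries of S100a1 and S100a13 held none of the 5. The S100a6 entry held CCAAT on the minus strand at position 23 and CACGTG at position 265. The S100a11 entry held GGGCGG at positions 187, 199 and 227, TGANTCA at 115 and 213, and CACGTG at 28. The S100a4 entry held TATAAA at position 220. For S100a16 the entry at chr3:90540896-90541195 held GGGCGG at 221 and TGANTCA at 59, and that at chr3:90537004-90537303 held none. None of these matches overlaps another. A match describes the letters only.

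Levels were compared per length, as log2 RPKM. Over all 10 libraries S100a11, a partner of annexin A1, was the highest member, with a mean of 5.31 ± 0.293 (SD, n = 10), and it was above the next member in 10 of 10 libraries. S100a10, the light chain that joins a pair of annexin A2 molecules, followed with 4.30 ± 0.473 (SD, n = 10) and was above S100a13 in 9 of 10. S100a13 (3.51 ± 0.668), S100a6 (3.24 ± 0.464) and S100a1 (3.02 ± 0.671; SD, n = 10 for each) came next and changed places between groups: S100a13 was above S100a6 in 6 of 10 libraries and S100a6 above S100a1 in 6 of 10, so this part of the order does not hold beyond the spread of the libraries. S100a16 was far lower, with 10 to 36 reads per library and a mean of -1.12 ± 0.703 (SD, n = 10). S100a4 had 0 reads in all 10 libraries, and the 3 reads that such a count allows correspond to at most 0.169 to 0.212 RPKM per library, for counting error only. In all, 5 of 7 members passed the filter on low values, and S100a16 and S100a4 did not.

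**Figure D1:**
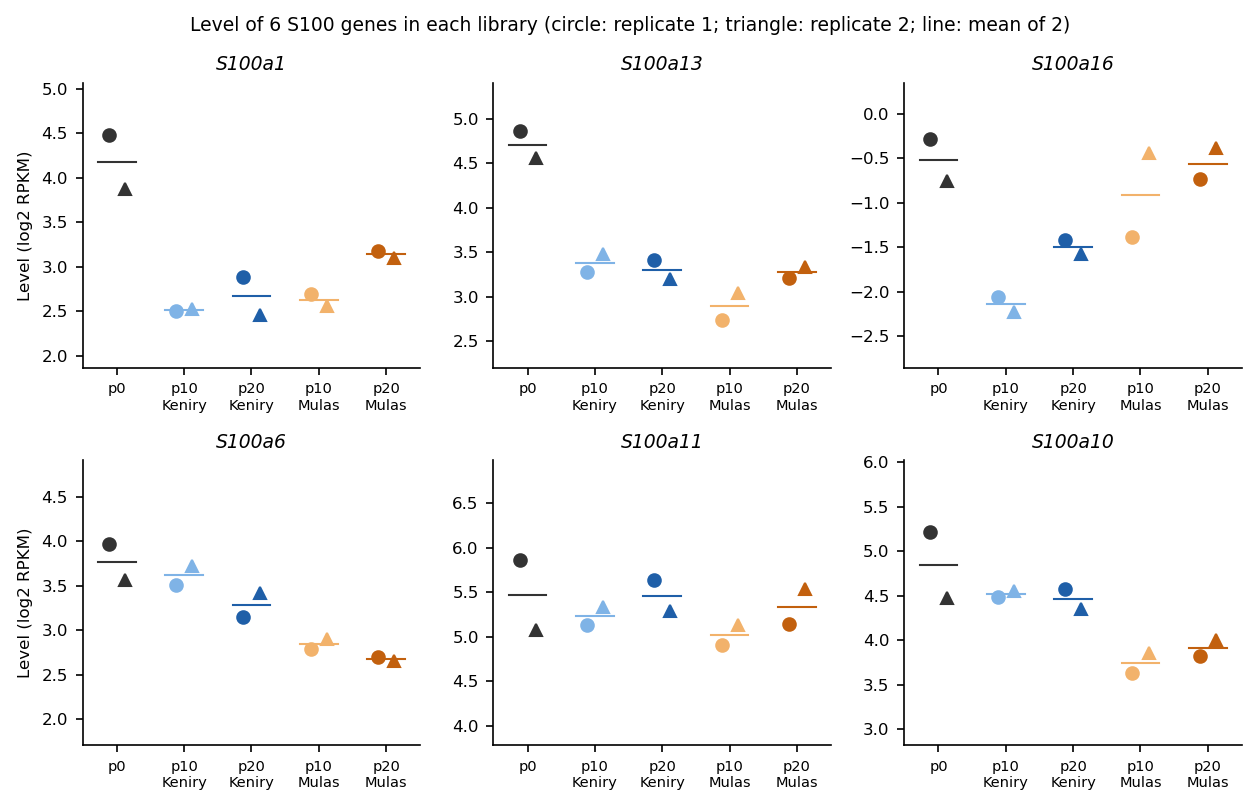
Level of 6 members (y axis, log2 RPKM, each panel spanning the same number of log2 units) in the 5 groups (x axis), with 1 symbol per library (circle for replicate 1, triangle for replicate 2) and a line at the mean of 2. S100a1 and S100a13 are highest in both p0 libraries, S100a6 and S100a10 are lowest in the 4 Mulas2019 libraries, and the p0 libraries of S100a11 overlap each later group.

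S100a1, a regulator of the ryanodine receptor and the calcium pump of muscle, had 4.47 and 3.87 log2 RPKM in the p0 libraries (371 and 275 reads). In p10 Keniry2022 it had 2.50 and 2.52, and in p20 Keniry2022 2.89 and 2.45. In p10 Mulas2019 it had 2.70 and 2.56, and in p20 Mulas2019 3.18 and 3.10. Both p0 libraries were thus above all 8 later ones, with 3.87 against 3.18 at the closest point, which is how the gene was chosen. Mean differences from p0 were -1.66 and -1.50 on the log2 scale at p10 and p20 Keniry2022, and -1.54 and -1.04 at p10 and p20 Mulas2019, equal to levels 2.05 to 3.17 times lower.

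S100a13, which takes part in the release of FGF1 and interleukin 1 alpha from cells without a signal peptide, had 4.86 and 4.56 log2 RPKM at p0 (500 and 456 reads). Later values were 3.28 and 3.48 in p10 Keniry2022, 3.42 and 3.20 in p20 Keniry2022, 2.74 and 3.04 in p10 Mulas2019, and 3.22 and 3.33 in p20 Mulas2019. The gap between p0 and the later libraries was again without overlap, as the choice of the gene required. Mean differences from p0 were -1.33, -1.41, -1.82 and -1.44 in the same order of groups, equal to levels 2.52 to 3.53 times lower. Il1a had 1 to 9 reads and Fgf1 0 to 11 reads per library, so neither cargo could be followed.

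None of the 3 other members that passed the filter had both p0 libraries above all 8 later ones. S100a4 had no reads in which a fall could be seen, and S100a16 is described separately. Of all 11561 features tested over the 10 libraries, 13.2% had both p0 libraries above all 8 later ones, and among the members this held for S100a1 and S100a13 alone. Of these 3 members, none was called against p0 under Keniry2022 conditions at p10 or at p20 (adjusted p under 0.05 in limma, called for 0.199% of features in each comparison, with 2860 and 3237 features at an unadjusted p under 0.05). With so few features called, the lack of a call does not show that a member stayed at its p0 level. Under Mulas2019 conditions 2 of the 3, S100a6 and S100a10, were called lower than p0 at both passages, where 33% of features at p10 (17.3% lower) and 29.3% at p20 (14.6% lower) were called.

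S100a6, or calcyclin, which binds the ubiquitin ligase adaptor Cacybp, had 3.96 and 3.56 log2 RPKM at p0 (270 and 230 reads). It had 3.51 and 3.72 in p10 Keniry2022, 3.15 and 3.42 in p20 Keniry2022, 2.78 and 2.90 in p10 Mulas2019, and 2.70 and 2.65 in p20 Mulas2019. The p10 Keniry2022 libraries overlapped p0, both p20 Keniry2022 libraries lay below p0, and the 4 Mulas2019 libraries lay below all 6 others. Among all features tested, 26.7% had both p0 libraries above all 4 Mulas2019 libraries. The difference from p0 was -0.15 (SE 0.155, adjusted p = 0.512) at p10 Keniry2022 and -0.48 (SE 0.155, adjusted p = 0.138) at p20 Keniry2022. S100a6 fell by 0.92 at p10 Mulas2019 (SE 0.155, adjusted p = 0.0117) and by 1.09 at p20 Mulas2019 (SE 0.155, adjusted p = 0.0102), to levels 1.90 and 2.13 times lower than at p0.

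S100a10 had 5.21 and 4.47 log2 RPKM at p0 (1082 and 728 reads), a split of the p0 libraries that only S100a11 exceeded among the members tested. Under Keniry2022 conditions it had 4.49 and 4.55 at p10 and 4.58 and 4.35 at p20, and under Mulas2019 conditions 3.63 and 3.85 at p10 and 3.82 and 4.0 at p20. The 4 Mulas2019 libraries again lay below all 6 others, whereas the Keniry2022 libraries were on both sides of p0 replicate 2. S100a10 fell by 1.1 at p10 Mulas2019 (SE 0.220, adjusted p = 0.0158) and by 0.93 at p20 Mulas2019 (SE 0.220, adjusted p = 0.0249). At p10 and p20 Keniry2022 the differences were -0.32 (adjusted p = 0.341) and -0.38 (adjusted p = 0.258).

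S100a11 showed no called difference. It had 5.86 and 5.08 at p0 (715 and 467 reads), 5.14 and 5.33 in p10 Keniry2022, 5.64 and 5.28 in p20 Keniry2022, 4.90 and 5.14 in p10 Mulas2019, and 5.14 and 5.53 in p20 Mulas2019. The p0 libraries overlapped each of the 4 later groups, and p10 Mulas2019 lay just below the other 3 later groups. Differences from p0 were -0.24, -0.0079, -0.45 and -0.13 in the order above (adjusted p = 0.539, 0.983, 0.196 and 0.702), with 95% intervals that reach from -1.05 to 0.59, and that of the p10 Mulas2019 comparison includes a fall of 1 log2 unit.

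**Figure D2:**
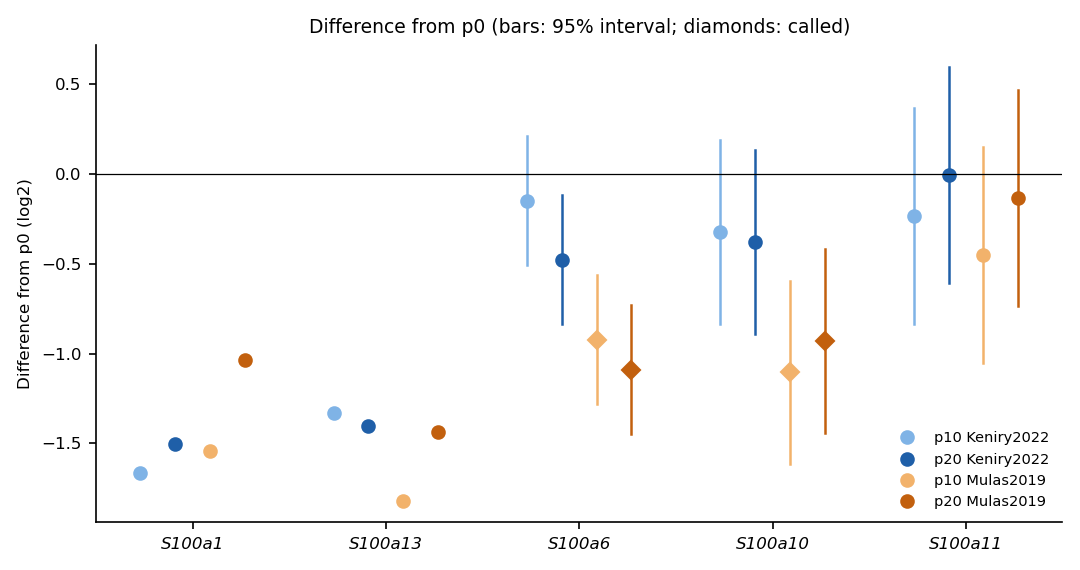
Difference from p0 (y axis, log2) of the 5 members that passed the filter, for the 4 later groups (colours), with 95% intervals as bars and diamonds where the adjusted p was under 0.05. S100a1 and S100a13 carry no bar because they were chosen on these differences. S100a6 and S100a10 are marked by diamonds in the 2 Mulas2019 groups only, with differences of -0.92 to -1.1.

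These calls rest on few libraries and on the weights given to them. With library quality weights all 4 were lost at the same differences (S100a6 adjusted p = 0.151 at p10 and 0.138 at p20 Mulas2019, S100a10 0.122 and 0.163), and with no filter that of S100a10 at p20 was lost (0.0545). Without either p10 Mulas2019 library the p10 Mulas2019 calls of S100a6 (adjusted p = 0.0906 and 0.0702) and S100a10 (0.0995 and 0.0785) were lost, and without either p20 Mulas2019 library those at p20 were lost (0.0889 and 0.0854 for S100a6, 0.141 and 0.105 for S100a10), while the differences kept their sign. The p20 Mulas2019 call of S100a10 was also lost without either p10 Keniry2022 library (0.0512 and 0.0506). Without p0 replicate 2, leaving p0 replicate 1 alone, the Keniry2022 comparisons called S100a6, S100a10 and S100a11 at p10 (-0.35, -0.69 and -0.63) and S100a6 and S100a10 at p20 (-0.68 and -0.75), and S100a11 was called in both Mulas2019 groups (-0.84 and -0.52). Without p0 replicate 1, S100a6, S100a10 and S100a11 at p10 Keniry2022 were 0.05, 0.05 and 0.15, and S100a1 and S100a13 had differences from p0 of -0.74 to -1.67 in the 4 groups.

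The summed levels of the mESC, primitive endoderm and trophectoderm markers also differed between p0 and the Mulas2019 libraries in which S100a6 and S100a10 fell. Those of the early differentiation and fibroblast markers overlapped. The mESC markers summed to 1327 to 1573 RPKM at p0 and 1134 to 1157 RPKM in the Mulas2019 libraries, the primitive endoderm markers to 6.65 to 10.3 and 11.9 to 14.4 RPKM, and the trophectoderm markers to 4.48 to 4.87 and 5.47 to 7.04 RPKM. A sum is led by its highest markers. Of the 9 primitive endoderm and 8 trophectoderm markers, 2 of each list passed the filter. Col4a1 (1.02 and 1.16) and Eomes (0.44 and 0.79) were called higher at p10 and p20 Mulas2019, and none was called lower. Markers below the filter did not all rise. Sox17 was at -1.29 and -1.13 log2 RPKM at p0 and -2.17 to -1.58 in the Mulas2019 libraries. The part of such marker shifts in the falls of S100a6 and S100a10 was not tested.

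Short transcripts as a class were also lower than at p0. The members that passed the filter have 511 to 1212 bases of exon, and the 1059 tested features of 500 to 1250 bases had median differences from p0 of -0.28 and -0.31 at p10 and p20 Keniry2022 and -0.48 and -0.43 at p10 and p20 Mulas2019, against medians of 0.0018 to 0.034 over all features. Among them 37.3% were called lower at p10 Mulas2019 and 31.8% at p20. The p0 libraries differed from each other. Each member that passed the filter was higher in p0 replicate 1 than in p0 replicate 2, such as S100a10 with 5.21 and 4.47 log2 RPKM. The medians of the class were not computed for each p0 library alone, so they may rest in part on p0 replicate 1. The part of length in the members' values was not tested beyond a fit with the trend on exon length removed. In that fit S100a6 was still called at p10 and p20 Mulas2019 (-0.45 and -0.62, adjusted p = 0.0293 and 0.0123), as was S100a10 (-0.70 and -0.55, adjusted p = 0.00811 and 0.0181). The differences of S100a1 were then -1.34, -1.15, -1.07 and -0.57, and those of S100a13 -1.01, -1.05, -1.35 and -0.97, in the order p10 and p20 Keniry2022, p10 and p20 Mulas2019. In bulk RNA, fewer cells with a transcript and less transcript per cell cannot be told apart.

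The culture methods were then compared directly, with p10 and p20 pooled and p0 left out, a contrast that the choice of S100a1 and S100a13 did not use. Of the 5 members tested 2 were called, S100a6 and S100a10, both higher under Keniry2022 conditions, where 51.5% of 11654 features were called (25.9% higher). S100a6 was 3.45 ± 0.235 under Keniry2022 and 2.76 ± 0.109 under Mulas2019 conditions (log2 RPKM, SD, n = 4), a difference of 0.69 (SE 0.106, 1.62-fold, limma adjusted p = 0.000543). S100a10 was 4.49 ± 0.0996 and 3.83 ± 0.155 (SD, n = 4), a difference of 0.67 (SE 0.0776, 1.59-fold, limma adjusted p = 0.000140). Neither gene overlapped between the methods, and 46.5% of features did not (23.1% with Keniry2022 higher).

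The other 3 tested members were not called between the methods. S100a1 was 2.59 ± 0.201 and 2.88 ± 0.30 (SD, n = 4; difference -0.29, 95% interval -0.62 to 0.03, limma adjusted p = 0.114), S100a13 was 3.34 ± 0.131 and 3.08 ± 0.257 (SD, n = 4; difference 0.26, interval -0.0011 to 0.52, limma adjusted p = 0.0878), and S100a11 was 5.35 ± 0.212 and 5.18 ± 0.260 (SD, n = 4; difference 0.17, interval -0.12 to 0.46, limma adjusted p = 0.305). The sign for S100a1 was thus opposite to that of the other 4. S100a1 was called without p20 Keniry2022 replicate 1 (-0.39, adjusted p = 0.0413), without p10 Mulas2019 replicate 2 (-0.40, adjusted p = 0.0380), with passage as a term (adjusted p = 0.0342) and with the length trend removed (-0.43, adjusted p = 0.0321). Without p20 Mulas2019 replicate 2, S100a13 (0.34, adjusted p = 0.0267) and S100a11 (0.29, adjusted p = 0.0492) were called. S100a6 and S100a10 were called in all 21 alternatives, among them the length fit (0.56 and 0.54), in which the median of 0.15 that short features had in this contrast was removed.

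The summed levels of the mESC, primitive endoderm, trophectoderm and early differentiation markers did not overlap between the methods, whereas those of the fibroblast markers did. A sum is led by its highest markers, and markers below the filter did not all follow. Sox7, of the primitive endoderm list, was at -1.10 to 0.01 log2 RPKM in the Keniry2022 and -1.23 to -0.25 in the Mulas2019 libraries. The summed mESC markers were 1225 to 1372 RPKM in the Keniry2022 and 1134 to 1157 RPKM in the Mulas2019 libraries. Of the 6 markers 3 were called higher under Keniry2022 conditions, Pou5f1 (0.40), Zfp42 (0.30) and Nanog (0.18), and Klf4 was called lower (-0.40). The 9 primitive endoderm markers, of which 2 passed the filter and none was at 0 in all libraries, summed to 7.82 to 9.95 and 11.9 to 14.4 RPKM, where the 2 that passed, Col4a1 and Lama1, both of the basement membrane, were called lower under Keniry2022 conditions (-0.69 and -0.68). The sums of the 8 trophectoderm markers, of which 2 passed, were 3.86 to 4.79 and 5.47 to 7.04 RPKM. The 6 early differentiation markers, of which 1 passed, summed to 5.16 to 6.37 and 6.41 to 8.71 RPKM, and the 8 fibroblast markers to 0.612 to 1.13 and 0.808 to 1.47 RPKM. Whether cells of these types differed in number between the methods was not tested, nor was their part in the S100a6 and S100a10 difference.

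At single passages fewer members were called. At p10, S100a6 was the member called, 0.77 higher under Keniry2022 conditions (SE 0.155, adjusted p = 0.0263), where 8.53% of features were called, and S100a10 had a difference of 0.78 (SE 0.220, adjusted p = 0.0683). Leaving out any p10 library, or either p20 Mulas2019 library, lost the call of S100a6 (adjusted p = 0.0597 to 0.211), and without either p0 library S100a10 and S100a13 were called as well (0.78 and 0.49). At p20, where 2.15% of features were called, 0 members passed, with 0.61 for S100a6 (adjusted p = 0.0884) and 0.55 for S100a10 (adjusted p = 0.227). In the comparison matched in days, p20 Keniry2022 with p10 Mulas2019, 6.43% of features and 0 members were called, with 0.72 for S100a10 (adjusted p = 0.0959), and close values of 0.45 for S100a6 (adjusted p = 0.135), 0.44 for S100a11 (0.350) and 0.41 for S100a13 (0.156). Without either p0 library the last 2 comparisons called 3 and 4 of the 5 members.

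From p10 to p20 no member and 0% of features were called by limma under either method, with 289 features under Keniry2022 and 772 under Mulas2019 conditions at an unadjusted p under 0.05, and limma-voom on the recovered reads called 0 and 1 features. The member with the largest difference was S100a1 under Mulas2019 conditions, 0.51 higher at p20 (SE 0.206, adjusted p = 0.699). Its p20 Mulas2019 libraries, 3.18 and 3.10, were above both p10 Mulas2019 libraries. The test of whether the method difference changed between passages called 0 members and 0% of 11561 features, with 405 at an unadjusted p under 0.05 and 0 called by limma-voom.

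S100a16 was too low for the filter and was examined alone. Its reads were 32 and 26 at p0, 11 and 10 in p10 Keniry2022, 17 and 16 in p20 Keniry2022, 15 and 36 in p10 Mulas2019, and 27 and 34 in p20 Mulas2019. On the log2 RPKM scale the 4 Keniry2022 libraries, at -2.22 to -1.41, lay below the 4 Mulas2019 libraries, at -1.39 to -0.38, and below p0, at -0.75 and -0.28. The means were -1.82 ± 0.384 and -0.74 ± 0.459 (SD, n = 4), a difference of -1.08 with an exact two-sided permutation p of 0.0286, the smallest that 4 against 4 libraries can give. The gap between the groups was narrow (-1.41 against -1.39), and with 10 to 36 reads counting error is a large part of the spread. By reads the groups overlapped, with 17 in p20 Keniry2022 replicate 1 and 15 in p10 Mulas2019 replicate 1. Of the features tested between the methods, 46.5% did not overlap either. The S100a16 difference between the methods had the opposite sign to those of S100a6 and S100a10. Unlike S100a1 and S100a13, S100a16 did not separate p0 from the Mulas2019 libraries.

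The head-to-head pair was lower than p0 in the same groups, but the gap between its members was not constant. S100a13 minus S100a1 was 0.39 and 0.69 log2 units at p0, 0.78 and 0.96 in p10 Keniry2022, 0.53 and 0.74 in p20 Keniry2022, 0.05 and 0.48 in p10 Mulas2019, and 0.04 and 0.24 in p20 Mulas2019. The 4 Keniry2022 libraries (0.75 ± 0.178, SD, n = 4) lay above the 4 Mulas2019 libraries (0.20 ± 0.207, SD, n = 4), and p0 overlapped both. The methods were close at the nearest point, with 0.53 in p20 Keniry2022 replicate 1 against 0.48 in p10 Mulas2019 replicate 2. Of single features tested between the methods, 46.5% did not overlap either, and the share among pairs of genes was not computed. The difference between the methods was noticed in the values and is given without a test. Within a library S100a13 minus S100a1 does not depend on the total of reads.

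**Figure D3:**
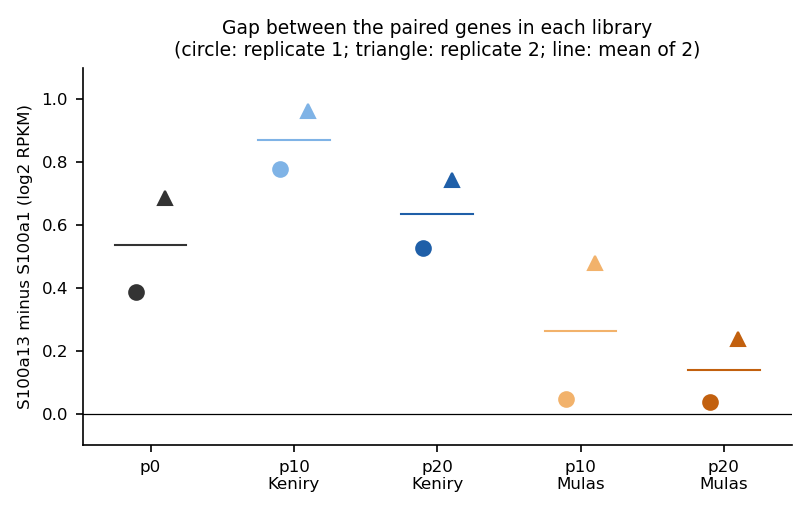
S100a13 minus S100a1 (y axis, log2 RPKM) in each library (circle for replicate 1, triangle for replicate 2) of the 5 groups (x axis), with a line at the mean of 2. The Keniry2022 libraries lie between 0.53 and 0.96 and the Mulas2019 libraries between 0.04 and 0.48.

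As a description of how the members varied together, Pearson's r over the 10 libraries, which share the p0 step and 2 lines, was 0.89 between S100a1 and S100a13 and 0.90 between S100a6 and S100a10. Without the p0 libraries (n = 8) r was 0.12 for the first pair and 0.84 for the second. Without p0, S100a13 had r = 0.80 with S100a10, 0.79 with S100a11 and 0.49 with S100a6, whereas S100a1 had r = -0.38, 0.31 and -0.75 with the same genes, and S100a16 and S100a6 had r = -0.89. The mean of S100a1 and S100a13 had r = 0.68 with S100a10, 0.55 with S100a6, 0.53 with S100a16 and 0.52 with S100a11 over the 10 libraries, and 0.20, -0.25, 0.30 and 0.71 without p0. The values over 10 libraries include the p0 step by which the pair was chosen.

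The genes whose pattern was most like the mean of S100a1 and S100a13 were picked by r, which is given as a description. Among 6194 features with a mean of at least 3 log2 RPKM, the 6 with the highest r over the 10 libraries were Itm2a (0.97), Fam18b (0.97), Tdgf1 (0.96), 2610029I01Rik (0.95), Crot (0.94) and Cth (0.94). Without p0 (n = 8) r was 0.95 for Itm2a and 0.33 to 0.64 for the other 5. Itm2a, an integral membrane protein gene on chromosome X, had 4.01 and 3.6 log2 RPKM at p0 and 2.62 to 3.24 later. Tdgf1, which encodes the Nodal co-receptor Cripto, had 9.61 and 9.26 at p0 and 8.72 to 8.97 later. 2610029I01Rik, Crot and Cth overlap other genes, so their reads may be shared.

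The genes around the pair had differences from p0 in both directions. Of 29 other features within 500 kb of S100a1 or S100a13, 16 passed the filter, and 0 of these lay on the S100a13 side, where the other S100 genes are. Against p0, 0 of 16 were called at p10 or p20 Keniry2022, and at p10 and p20 Mulas2019 3 were called higher and 0 lower, beside 0.199% of all features under Keniry2022 conditions and 15.7% (p10) and 14.7% (p20) higher under Mulas2019 conditions. With so few genes these counts are near the background. The 3 were Dennd4b (0.67 and 0.85), Crtc2, a coactivator of CREB (0.44 and 0.71), and Ints3, a subunit of the Integrator complex (0.44 and 0.58). Between the methods 2 of 16 were called, Dennd4b (-0.44) and Gm16048 (-0.22), both lower under Keniry2022 conditions, where 51.5% of all features were called. Rps27, a gene of the small ribosomal subunit, had differences from p0 of -1.04, -1.41, -0.57 and -1.03 at p10 and p20 Keniry2022 and p10 and p20 Mulas2019 (adjusted p = 0.173, 0.122, 0.246 and 0.0657), and Jtb had -0.64 at p10 Mulas2019 (adjusted p = 0.0538). The nearest tested neighbour, 2500003M10Rik, was 0.01 from p0 at p20 Keniry2022 and -0.08 at p20 Mulas2019 (adjusted p = 0.938 and 0.459). The median difference from p0 of the 527 tested features of chromosome 3 was 0.01 to 0.17 in the 4 groups.

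**Figure D4:**
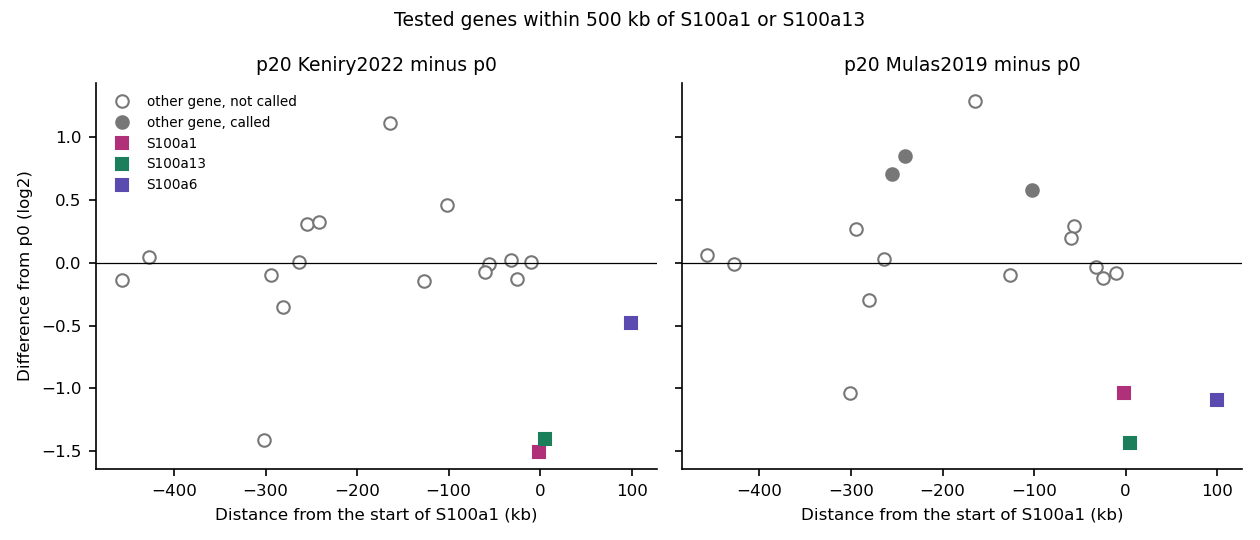
Difference from p0 (y axis, log2) of the 16 tested genes within 500 kb and of S100a1, S100a13 and S100a6 against the distance of the gene's middle from the start of S100a1 (x axis, kb), at p20 Keniry2022 (left) and p20 Mulas2019 (right). S100a1 and S100a13 lie at -1.04 to -1.50, near them lie Rps27 (open circle, -1.41 and -1.03) and, at p20 Mulas2019, S100a6 (-1.09), whereas the nearest neighbour is within 0.08 of p0 and the filled circles, the other genes called, lie above p0.

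The rest of the S100 family was close to silent. Of 8 further S100 genes of the cluster 6 were in the table by name, and 0 passed the filter. S100a3, S100a5, S100a7a, S100a8 and S100a9 had 0 reads in all 10 libraries. S100a14, which lies between S100a13 and S100a16, had 6 and 7 reads at p0, 3 to 15 in the Keniry2022 and 0 to 4 in the Mulas2019 libraries, with overlap at 3 and 4 reads (exact two-sided permutation p = 0.0571 on the log2 scale, n = 4 a method). Of the S100 genes elsewhere, S100b had 0 reads, S100z 0 to 1, and S100g 8 reads in p0 replicate 1 and 0 to 1 in the other libraries.

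The S100 partners, a list of 30 annexins, myosin heavy chains and other binding proteins of which 21 passed the filter, moved in both directions. Between the methods 7 were called higher and 9 lower under Keniry2022 conditions (25.9% and 25.5% of all features), with a list median of -0.03 against -0.0030 over all features. Against p0, 0 were called at p10 or p20 Keniry2022, and 6 higher and 3 lower at both p10 and p20 Mulas2019. Of all features 15.7% and 14.7% were called higher, and 17.3% and 14.6% lower, at p10 and p20 Mulas2019. Anxa1, the annexin that S100a11 binds, was the largest, at 1.87 and 1.79 log2 RPKM at p0, 0.88 to 1.19 in the Keniry2022 and -1.59 to -0.35 in the Mulas2019 libraries (difference between methods 1.81, SE 0.246, limma adjusted p = 0.000296). Anxa2, the partner of S100a10, went the other way from S100a10: it was 1.86 to 2.72 in the Keniry2022 and 3.09 to 3.31 in the Mulas2019 libraries, 0.94 lower under Keniry2022 conditions (SE 0.162, limma adjusted p = 0.00105). Cacybp, the partner of S100a6, fell by 0.92 from p0 at p20 Mulas2019 (SE 0.185, adjusted p = 0.0179), as did Sugt1, another protein that S100a6 binds, by 0.94 (SE 0.148, adjusted p = 0.0120). The other called partners with the largest differences between the methods were Myh14 (-0.99) and Ryr1 (-0.89), the ryanodine receptor of skeletal muscle.

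Cytosolic and secretory EF-hand proteins of other families, 26 genes of which 20 passed the filter, were listed for comparison. Between the methods 6 were called higher and 3 lower under Keniry2022 conditions (25.9% and 25.5% of all features; median 0.04), with Calm2 0.45, Cetn2 0.31 and Cetn3 0.29 higher. Against p0, 0 were called under Keniry2022 conditions (medians -0.36 and -0.29), 1 higher and 8 lower at p10 Mulas2019 (median -0.35) and 0 higher and 8 lower at p20 Mulas2019 (median -0.35), where 17.3% and 14.6% of all features were called lower at p10 and p20. Cetn3, a centrin of the centrosome, fell by 1.21 and 1.26 and Calm2, a calmodulin gene, by 0.87 and 0.96 at p10 and p20 Mulas2019, beside falls of 0.92 to 1.1 for S100a6 and S100a10.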

How the data were processed

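RNA-seq was analysed from 1 deposited table of 25965 features in 10 libraries, 2 per group, grouped by the sample titles. The deposited values are log2 values that the authors made from single-end reads aligned to mm10 and quantified per gene in SeqMonk. The study names HISAT2 as aligner, whereas the submitters' processing notes list TopHat2 2.0.12 and bcl2fastq. No source used here gives the strand setting, the annotation release or how reads with several alignments were handled, so reads of overlapping or antisense genes and of pseudogenes cannot be assigned with confidence. The table is named log CPM and the study writes RPM. The deposited values fit log2 RPKM with 0 reads entered as 0.9 reads, since the 6624 features at 0 in all libraries lie at floors set by their length. These floors gave the library totals and 10303 exon lengths, and 15662 other lengths came from a search for whole reads, which makes whole reads no check for the latter. All values (100%) were whole within 0.1 reads, and for 64 features another length was possible. Coordinates are those of the table, with GENCODE vM21 of the same build for annotation. No column of per-sample values was left unused.

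Tests used limma 3.58.1 in R 4.3.3 on the deposited log2 values with no added pseudocount: the moderated test with an intensity trend, two-sided. Adjusted p-values (Benjamini-Hochberg, across the whole filtered table) under 0.05 were called. The filter kept features above 0 on the log2 scale in 50% or more of the libraries fitted. The comparison of methods pooled p10 and p20 as in the study (8 libraries, no block), and all other contrasts came from 1 fit of 10 libraries with the 5 groups as terms. S100a16 and S100a14, below the filter, were compared by an exact permutation test over 4 against 4 libraries (70 splits). On simulated data from 11561 features the pooled fit recovered 69% of 100 features changed by 0.5 and 99% of 100 changed by 1 (4 unchanged features called), and the p20 Mulas2019 comparison with p0 recovered 26% and 87% (1 unchanged feature called). The simulated libraries were drawn independently of line and most features were left unchanged. In the data far more features were called, so these shares do not give the power of the comparisons. The alternatives were limma-voom with TMM scaling on the recovered reads, quantile normalisation, median centring, a pseudocount of 1, no filter, a stricter filter, no intensity trend, library quality weights, the replicate block, passage as a term, leaving out each library in turn and, added later, removal of the trend on exon length. Floors on reads cover counting error only. Intervals of differences were computed from the standard errors of the limma fits, so they reflect the spread between libraries. P-values measure the spread between these libraries, which come from 2 lines.

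Because each line was split between the methods, the replicate numbers should pair the libraries. Same-numbered libraries deviated together from their group means (r = 0.17 to 0.63 across features) except in every pair with p20 Keniry2022 (r = -0.12 to -0.70). The members and the lists of neighbours, partners, EF-hand genes and markers were chosen with earlier results of these data known. The genes named were all members with their values, the 4 largest differences among the called genes of a list (1 of them is not reported here), and the 6 features most like the mean of S100a1 and S100a13. Genes chosen after their values were seen are the neighbours 2500003M10Rik, Rps27, Jtb and Gatad2b, the markers Sox17 and Sox7, and the partners Anxa2, Cacybp, Sugt1, Fgf1 and Il1a where they are set beside a member.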

Additional observations from a re-analysis of the deposited data

Results flagged for a closer look

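In the 4 Keniry2022 libraries, S100a1 in p20 Keniry2022 replicate 1 stood apart, at 2.89 log2 RPKM (144 reads) against 2.45 to 2.52 (111 to 115 reads) in the other 3. The gap to its nearest neighbour was 0.843 of the range of the group, and about 1 in 20 groups passes such a limit by chance. The comparison of the methods without this library is -0.39 (limma adjusted p = 0.0413), against -0.29 (adjusted p = 0.114) with it. Its Y-linked reads (6659) were at the level of replicate 2 of the other groups.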

How the results depend on the processing

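S100a6 and S100a10 kept their direction and their call between the methods in all 21 alternatives, and 2 to 4 members were called there when 1 library was left out. Numbers of members called moved as follows, beside 2 at p10 and 2 at p20 Mulas2019 against p0, 1 between the methods at p10 and 0 in the other comparisons. Leaving out 1 library gave 0 to 3 at p10 and 0 to 2 at p20 Keniry2022 against p0, 0 to 3 at p10 and 0 to 3 at p20 Mulas2019 against p0, 0 to 3 between the methods at p10, 0 to 3 at p20 and 0 to 4 in the comparison matched in days. Library quality weights gave 0 and 0 for p10 and p20 Mulas2019 against p0, 3 and 3 for the methods at p10 and p20, 4 for the comparison matched in days and 1 for p20 against p10 Mulas2019. No filter gave 1 at p20 Mulas2019 against p0, quantile normalisation 2 for the methods at p10, and the exon length correction, chosen after the data were seen, 2 for the methods at p10, 1 at p20 and 1 for the comparison matched in days. The cause was not tested.

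Signs turned in 30 cases, all of differences that were not called. With the exon length correction, S100a6 was 0.17 and S100a11 0.10 at p10 Keniry2022 against p0, S100a11 was 0.36 at p20 Keniry2022, 0.022 at p10 and 0.35 at p20 Mulas2019, S100a13 was -0.083 between the methods at p20, and S100a1 was -0.076 in the comparison matched in days. With quantile normalisation S100a11 was 0.092 at p20 Keniry2022 and 0.061 at p20 Mulas2019 against p0. Leaving out 1 library gave ranges across 0: against p0, -0.35 to 0.049 for S100a6, -0.63 to 0.15 for S100a11 and -0.69 to 0.045 for S100a10 at p10 Keniry2022, -0.40 to 0.38 for S100a11 at p20 Keniry2022, and -0.52 to 0.26 for S100a11 at p20 Mulas2019. Between the methods at p20 the ranges were -0.080 to 0.14 for S100a13 and -0.069 to 0.32 for S100a11, and matched in days -0.18 to 0.26 for S100a1. From p10 to p20 Keniry2022 they were -0.057 to 0.38 for S100a1, -0.18 to 0.037 for S100a13 and -0.17 to 0.056 for S100a10, and for the change of the method difference between passages -0.28 to 0.11 for S100a11.

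With the replicate number as a block, no member's call changed: the number of members called stayed at 2 between the methods, at 2 for p10 and for p20 Mulas2019 against p0, at 1 between the methods at p10, and at 0 elsewhere. Over all features the pairing left 0 of the 23 called at p10 Keniry2022 against p0 and 1 of the 23 at p20, and took the count from 249 to 145 between the methods at p20. With the numbers of p20 Keniry2022 crossed, chosen after the data were seen, these counts were 0, 0 and 156.

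Over all alternatives, features called ranged from 2225 to 6395 between the methods (6000 as reported), 0 to 5880 at p10 (986), 1 to 4171 at p20 (249), 0 to 4955 matched in days (743), 0 to 7395 and 0 to 7641 at p10 and p20 Keniry2022 against p0 (23 and 23), 0 to 8250 and 0 to 8175 at p10 and p20 Mulas2019 against p0 (3816 and 3386), and 0 to 40, 0 to 512 and 0 to 72 for the changes between passages and their difference (0 each), so the background shares of called features move with them. A library left alone in its group is assumed to vary like the other groups. Depth limits S100a16, with 10 to 36 reads, and S100a4, with 0 reads, and differences in S100a4 were not detectable at this depth.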
